A study of Arabidopsis thaliana with 6 samples.

Results

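Transcript levels of 61 Arabidopsis thaliana peroxidase genes were compared between whole seedlings of 2 genotypes, wild-type Col-0 and an RNA interference (RNAi) line for sqtl1. The members are the genes of the deposited table, listed as mRNA, whose description holds the words Peroxidase superfamily protein, and they make up 61 of the 38194 genes in the table. The rule read the description only, with its capital letter, and no measured value entered it. Seedlings of both groups were collected 7 days after stratification, a cold treatment of the seed that evens out germination, and 3 biological replicates were sequenced for each group. Col-0 is the reference accession and is labelled as wild type, whereas the RNAi samples carry the mark sh1 in their names, which no label explains. Both groups grew in long days on MS medium with sucrose and agar. The promoter that drives the RNAi construct, the number of independent lines and the gene identifier of sqtl1 are not stated in the labels. The knockdown itself was not analysed here.

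Class III peroxidases are secreted haem enzymes of plants that use hydrogen peroxide to oxidise phenolic compounds in the cell wall. They couple monolignols into lignin, cross-link wall proteins and polysaccharides, and can also produce reactive oxygen species, so single members are known for stiffening walls, for loosening them or for the oxidative burst in defence. The family is large, has many tandem copies and is well known for its expression in roots. In RefSeq, 60 of the 61 members carry a note of a plant peroxidase domain. The member without it is DOX1 (AT3G01420), an alpha-dioxygenase that oxidises fatty acids and belongs to the wider haem peroxidase superfamily, and the 61 genes are thus class III peroxidases with DOX1 as the exception. Chromosomes 1 to 5 hold 12, 12, 8, 11 and 18 of them.

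Levels are given in RPKM as deposited by the authors, by name reads per kilobase of gene and per M (mega) of mapped reads. The totals of RPKM times length given below lay above 1 M in every Col-0 library, which this definition alone does not give. The depth estimated from the steps between low values was 38.0 to 49.8 M (mega) reads per Col-0 library and 43.7 to 47.0 M per RNAi library. At the median member length of 1.37 kb, 1 RPKM was estimated from the same steps to stand for 49.3 to 69.3 reads. These reads do not follow from the depths alone. On the first principal component of all genes tested, which held 82.4% of the variance, the Col-0 libraries scored -38.8, -36.9 and -38.4, and RNAi replicates 1 and 2 scored 49.8 and 42.6. RNAi replicate 3 stood apart from the other RNAi libraries, at 21.7, so it lay closest to the wild type. Tested members had a median SD on the log2 scale of 0.107 among Col-0 libraries and 0.255 among RNAi libraries. Over all genes tested, these medians were 0.0566 and 0.111. Markers of root hairs, endodermis, xylem and leaf mesophyll were all detected, and no marker was at 0 in all libraries. All 5 mesophyll markers were lower in limma (1 of them with no filter on low values). Their summed level was 36930 to 39130 RPKM in Col-0 and 16280 to 25590 in the RNAi line, and its part in the results below was not tested.

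The peroxidase genes moved in both directions, and the genes that rose were about as many as those that fell. Of the 61 members, 50 reached a mean of 1 RPKM over the 6 libraries and were tested with limma on log2(RPKM + 1). In the RNAi line, 17 of the 50 were higher, which is 34.0%, against 25.2% of all 19458 genes tested. Another 14 were lower, which is 28.0%, against 27.5% of all genes tested. The remaining 19 did not pass an adjusted p of 0.05. Together 62.0% of the tested members passed, beside 52.6% of all genes tested, and the values of the 2 groups did not overlap for 66.0% of the members, beside 64.1%. These shares are descriptions and were not tested against each other.

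The median log2 fold change of the tested members was 0.11, beside -0.0077 for all genes tested. Their median absolute log2 fold change was 0.52, beside 0.25 for all genes tested. Members also varied more between libraries of the same genotype. Their median SD was 0.107 beside 0.0566 for all genes tested in Col-0, and 0.255 beside 0.111 in the RNAi line. Changes reached 1 log2 unit in 3 members called higher, 6.0% of the members tested beside 3.36% of all genes tested. They did so in 3 members called lower, also 6.0%, beside 3.26%. Among the 31 members called, the 3 RNAi values lay outside the range of the 3 Col-0 values in every case. Without RNAi replicate 3, 19 members were higher and 15 lower, while the shares of all genes tested rose to 28.4% and 31.2%. When every library was rescaled to the same total, the members split into 19 higher and 13 lower, while the shares of all genes tested became 39.8% higher and 18.0% lower and the median of all genes moved to 0.136. In bulk seedlings, a change in the number of cells of a type and a change in RNA per cell cannot be told apart.

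**Figure D1:**
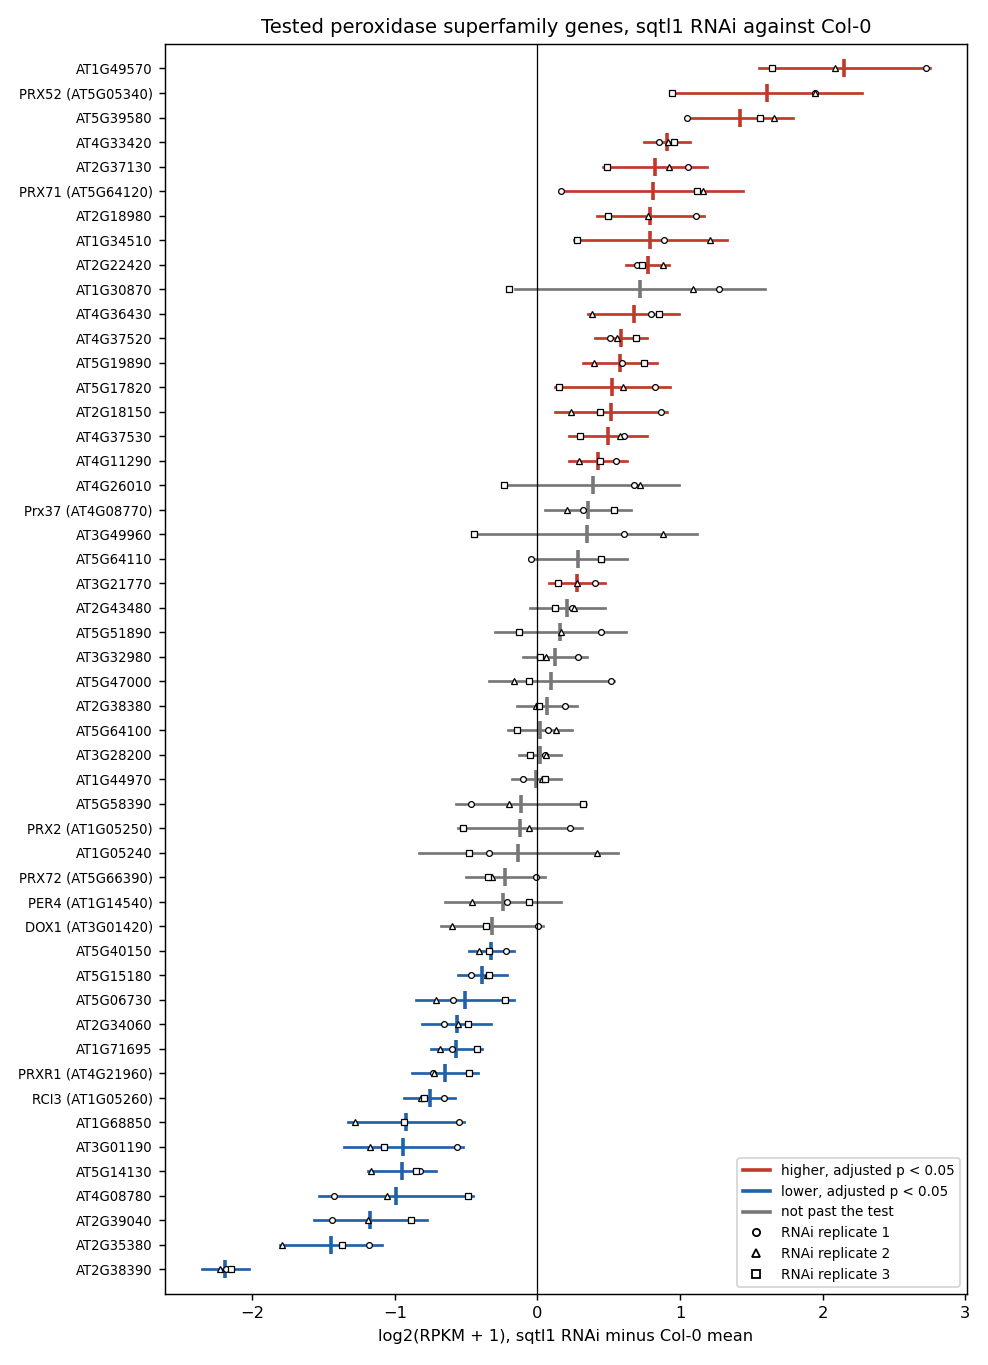
Difference of each RNAi library from the Col-0 mean for the 50 tested members, on the log2(RPKM + 1) scale. Ticks are limma's log2 fold changes, horizontal lines their 95% confidence intervals and open symbols the 3 RNAi replicates, with red for higher, blue for lower and grey for members that did not pass. AT1G49570 lies at the top with 2.15 and AT2G38390 at the bottom with -2.19.

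PRXR1, AT3G32980 and AT2G37130 were the most abundant members in both genotypes, and the order of their means was turned over. PRXR1 (AT4G21960, chromosome 4, 11646109 to 11648644) is noted by RefSeq in a wide range of organs. Its level was 767, 731 and 771 RPKM in the Col-0 replicates and 454, 456 and 542 in the RNAi replicates, so every RNAi library lay below every Col-0 library. The mean fell from 756 ± 22.0 to 484 ± 49.99 RPKM (SD, n = 3), 1.56-fold lower (log2 fold change -0.65, SE 0.10, limma adjusted p = 0.00218).

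AT2G37130 (chromosome 2, 15597921 to 15600154) is noted for defence against fungi. It was at 375, 413 and 389.7 RPKM in Col-0, against 815, 745 and 550.2 in the RNAi line. All RNAi values were above the Col-0 values, with replicate 3 nearest to them. The mean was 392.5 ± 19.5 against 703 ± 137 RPKM (log2 fold change 0.82, SE 0.15, limma adjusted p = 0.00494). AT3G32980, noted in the cell wall and vacuole, lay between both genes in the rank of the means. Its values were 511, 537 and 524 RPKM in Col-0 and 639, 546 and 531 in the RNAi line, where the groups overlapped, and it did not pass the test (log2 fold change 0.12, 95% interval -0.10 to 0.35, limma adjusted p = 0.315).

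Within each library, AT2G37130 was at 0.488, 0.565 and 0.506 of the level of PRXR1 in Col-0. In the RNAi replicates this ratio was 1.80, 1.63 and 1.02. The ratios could not overlap, because every RNAi value lay below Col-0 for PRXR1 and above it for AT2G37130. The exact two-sided permutation p of 0.1, the smallest that 3 against 3 libraries allow, was thereby fixed and adds no support. In the RNAi line the order of the means was AT2G37130 at 703 ± 137, AT3G32980 at 572 ± 58.5 and PRXR1 at 484 ± 49.99 RPKM, where each gene lay within 2 SD of the next. It did not hold in RNAi replicate 3, where AT2G37130 was at 550.2, PRXR1 at 542 and AT3G32980 at 531 RPKM.

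The next most abundant members behaved differently from one another. AT5G64100 is noted in the cell wall and, by organ, in hypocotyl, root and callus. It was at 238, 270.1 and 261 RPKM in Col-0 and 269.6, 279.6 and 232 in the RNAi line, with a log2 fold change of 0.02 (95% interval -0.21 to 0.25). PRX71 (AT5G64120) is a cell wall peroxidase known for a part in lignification and noted for defence against fungi. It was at 154, 170.4 and 172 RPKM in Col-0, against 185, 371 and 360.1 in the RNAi line, so RNAi replicate 1 lay close to Col-0 and the other two lay far above. The log2 fold change was 0.81 (SE 0.26, limma adjusted p = 0.0379). Its call did not hold when any single library other than RNAi replicate 1 was left out, with adjusted p between 0.074 and 0.117. Without RNAi replicate 1 it was 1.14 (adjusted p = 0.00013). DOX1 was at 155, 169 and 173 RPKM in Col-0 and 166, 109 and 128 in the RNAi line, with overlap (log2 fold change -0.32, limma adjusted p = 0.117). Without RNAi replicate 1 its log2 fold change was -0.48 and it passed (adjusted p = 0.00447).

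**Figure D2:**
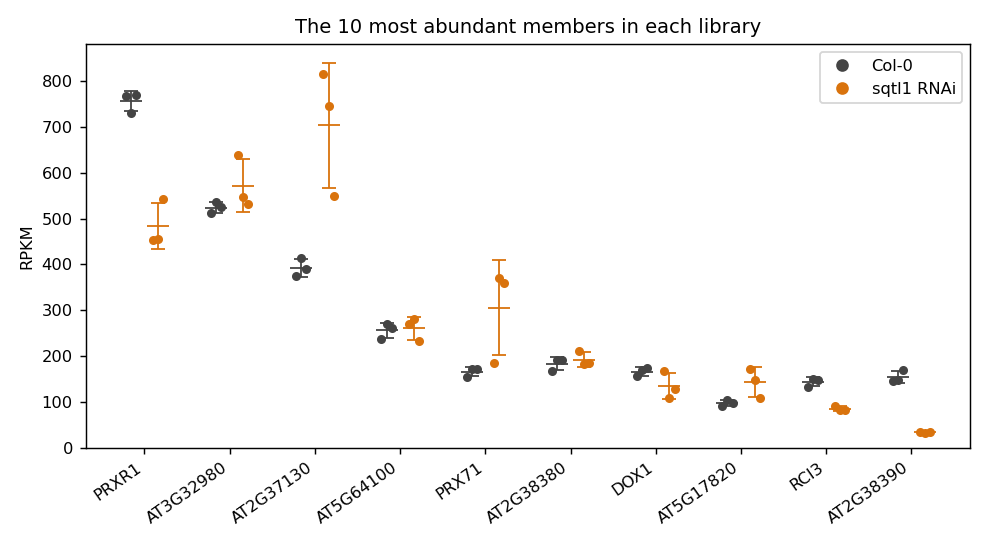
RPKM of the 10 members with the highest mean over all libraries, with 1 point per library and the mean ± SD of each group. PRXR1 stands highest in Col-0, at 731 to 771 RPKM, and AT2G37130 in the RNAi line, at 550.2 to 815, while AT2G38390 drops from 146 or more to under 34.

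The summed level of the family did not separate the groups, while its share of the library did. Summed over all 61 genes it was 3536, 3786 and 3771 RPKM in Col-0 and 4072, 3929 and 3644 in the RNAi line, where the groups overlapped (exact permutation p = 0.3, two-sided). As a share of the library, with RPKM weighted by gene length, the members took 0.516% to 0.560% in Col-0 and 0.568% to 0.667% in the RNAi line. These shares did not overlap (exact permutation p = 0.1). They also depend on the library totals of RPKM times length, which were 1051600 to 1071469 in Col-0 and 926820 to 979309 in the RNAi line. RNAi replicate 3 had a lower sum than Col-0 replicate 2 (3644 against 3786 RPKM) but a higher share. The scaling behind the totals is not stated. The sum over the 17 members called higher was 967 ± 52.3 RPKM in Col-0, against 1660 ± 135 in the RNAi line, and that over the 14 called lower was 1317 ± 29.5 and 746.9 ± 55.7. These sums describe groups chosen by the same comparison and carry no test.

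AT2G38390 (chromosome 2, 16079679 to 16081671) had the largest decrease of any member, while its tandem neighbour AT2G38380 (16076289 to 16078781) did not pass the test. RefSeq notes both for the response to salt stress. AT2G38390 was at 146, 146 and 168 RPKM in Col-0, against 32.9, 32.0 and 33.7 in the RNAi line. The RNAi libraries lay close together and far below Col-0, 4.67-fold lower (log2 fold change -2.19, SE 0.07, limma adjusted p = 2.57e-05). AT2G38380 was at 167, 191 and 192 RPKM in Col-0, against 209.9, 182 and 184 in the RNAi line. Its groups overlapped, with a log2 fold change of 0.07 (95% interval -0.14 to 0.28, limma adjusted p = 0.554).

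Both genes lie on the plus strand, 897 bp apart, and their coding sequences are 90.6% identical. The share of reads listed as mapping to several places was 0.0 for both genes. Within each library AT2G38390 was at 0.876, 0.765 and 0.878 of the level of AT2G38380 in Col-0 and at 0.157, 0.176 and 0.183 in the RNAi line. The 2 genes were thus at like levels in Col-0 and far apart in all 3 RNAi libraries. The 250 bases before the annotated start of each gene are shown because the genes are near copies with different responses. They are from RefSeq, build TAIR10.1, at chr2:16076039-16076288 and chr2:16079429-16079678, plus strand, 5′ to 3′, and capitals mark runs of at least 12 bases found in both windows.
AT2G38380: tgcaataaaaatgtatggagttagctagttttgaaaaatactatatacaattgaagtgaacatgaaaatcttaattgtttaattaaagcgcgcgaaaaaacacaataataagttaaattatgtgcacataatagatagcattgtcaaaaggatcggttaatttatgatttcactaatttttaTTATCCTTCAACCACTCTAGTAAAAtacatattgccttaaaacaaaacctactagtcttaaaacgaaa
AT2G38390: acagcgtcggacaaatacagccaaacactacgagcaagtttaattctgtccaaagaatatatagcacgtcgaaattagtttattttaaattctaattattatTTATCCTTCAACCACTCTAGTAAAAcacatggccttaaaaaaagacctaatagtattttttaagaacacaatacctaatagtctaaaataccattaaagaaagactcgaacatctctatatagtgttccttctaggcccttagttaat
The windows share a single run of 25 bases, which ends 43 bases before the start of AT2G38380 and 123 bases before that of AT2G38390.

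AT4G37520 and AT4G37530, a tandem pair on chromosome 4 with 92.4% identical coding sequences, changed together. AT4G37520 was at 64.3, 71.6 and 73.8 RPKM in Col-0, against 99.7, 103 and 113 in the RNAi line (log2 fold change 0.59, SE 0.08, limma adjusted p = 0.00143). AT4G37530, noted for the response to salt stress and for the root, was at 19.8, 23.3 and 24.9 RPKM in Col-0, against 34.9, 34.2 and 27.9 in the RNAi line (log2 fold change 0.49, adjusted p = 0.0114). Neither gene's groups overlapped, and the ratio of AT4G37530 to AT4G37520 was 0.308 to 0.338 in Col-0 and 0.246 to 0.350 in the RNAi line, with overlap. Their windows, at chr4:17631250-17631499 and chr4:17634446-17634695 on the plus strand of TAIR10.1, are shown in the same way as those of the pair above.
AT4G37520: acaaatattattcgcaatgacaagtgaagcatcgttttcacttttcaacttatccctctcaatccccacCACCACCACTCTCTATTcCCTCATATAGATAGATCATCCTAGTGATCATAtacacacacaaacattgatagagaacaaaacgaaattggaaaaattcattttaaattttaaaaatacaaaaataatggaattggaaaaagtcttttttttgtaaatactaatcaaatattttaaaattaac
AT4G37530: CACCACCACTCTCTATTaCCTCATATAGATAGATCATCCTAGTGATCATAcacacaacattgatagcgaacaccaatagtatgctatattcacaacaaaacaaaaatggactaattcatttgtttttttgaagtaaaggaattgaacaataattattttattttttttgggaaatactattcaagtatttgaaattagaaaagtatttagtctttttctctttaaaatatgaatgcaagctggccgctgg
They share 49 bases in runs of at least 12, the longest of 32, ending 131 and 200 bases before the starts. The shared runs are a description of these windows, and no factor is assigned to them. A long run was also found in a pair that changed differently: AT4G08770 and AT4G08780, described below, share 31 bases. A link between shared runs and responses was not tested.

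In all, 11 pairs of members lie next to each other with no other protein-coding gene between them, and they involve 20 members. The longest shared run in their windows was 25 to 32 bases for 3 pairs, 15 for AT2G18140 and AT2G18150, and at most 10 for the other 7. Over all 1830 pairs of members the median longest run was 9 bases, and 42 pairs (2.3%) shared a run of at least 12. Both genes were tested in 7 of the neighbouring pairs, and in 4 of these 7 the ratio of the neighbours did not overlap between groups (exact permutation p = 0.1, adjusted over the 7 pairs 0.175). The share over other pairs of genes was not computed, and among single genes tested the groups did not overlap for 64.1%. The 4 include AT1G05250 with AT1G05260, and the 7 also include AT1G05240 with AT1G05250. Nearly all reads of AT1G05250 map to several places, so the ratios of these pairs are uncertain. No pair had its genes called in opposite directions by limma.

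AT4G08780 and Prx37 (AT4G08770) came next in the size of the difference between neighbours, with 93.8% identical coding sequences. Prx37 is known for dwarfed growth when overexpressed. AT4G08780 was at 7.40, 7.86 and 6.44 RPKM in Col-0, against 2.06, 2.95 and 4.85 in the RNAi line, so all RNAi libraries were lower, replicate 3 the least (log2 fold change -0.99, SE 0.23, limma adjusted p = 0.0107). With no filter on low values it did not pass (adjusted p = 0.0528). Prx37 was at 14.5, 19.0 and 18.5 RPKM in Col-0, against 21.7, 20.00 and 25.4 in the RNAi line. These groups did not overlap, but the gene missed the threshold (log2 fold change 0.36, limma adjusted p = 0.0507) and passed it with a mean of at least 5 RPKM, with quantile normalization and under the rescaling to equal totals (adjusted p = 0.0483, 0.0484 and 0.0104). The ratio of AT4G08780 to Prx37 was 0.511, 0.415 and 0.349 in Col-0 and 0.0951, 0.148 and 0.191 in the RNAi line.

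RCI3 (AT1G05260), a peroxidase named for its induction by cold and noted for desiccation and salinity, was lower while its neighbour PRX2 (AT1G05250) did not pass. RCI3 was at 133, 150.2 and 148 RPKM in Col-0, against 90.6, 81.1 and 82.2 in the RNAi line, 1.70-fold lower with no overlap (log2 fold change -0.76, SE 0.07, limma adjusted p = 0.000592). PRX2 was at 35.7, 40.7 and 40.9 RPKM in Col-0, against 45.8, 37.3 and 26.9 in the RNAi line. The coding sequences of PRX2 and the next gene, AT1G05240, are 100% identical, and 0.997 and 0.995 of their reads are listed as mapping to several places. The levels of these 2 genes can therefore not be assigned to one or the other, which also holds for the ratio of RCI3 to PRX2, at 3.63 to 3.72 in Col-0 and 1.98 to 3.06 in the RNAi line. For the remaining members that ratio was at most 0.000112. PRX71 and its neighbour AT5G64110 had ratios of 38.6 to 50.6 in Col-0 and 51.3 to 68.0 in the RNAi line, higher in every RNAi library than in any Col-0 library.

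The largest increases were in members that were low in Col-0. AT1G49570 (chromosome 1, 18346958 to 18349049), noted in leaf, sepal, hypocotyl and root, was at 1.34, 1.57 and 1.35 RPKM in Col-0, against 14.96, 9.28 and 6.57 in the RNAi line. All 3 RNAi libraries were above Col-0, with a 7.23-fold higher mean (log2 fold change 2.15, SE 0.25, limma adjusted p = 0.000988). PRX52 (AT5G05340) is an apoplastic peroxidase known for a part in lignin of the stem. It was at 0.63, 0.33 and 0.36 RPKM in Col-0, against 4.52, 4.54 and 1.76 in the RNAi line (log2 fold change 1.61, SE 0.28, limma adjusted p = 0.00379). It was the only member called higher with a Col-0 mean under 1 RPKM. Its Col-0 values lay above the floor of 3 reads, which is 0.046 to 0.061 RPKM in the Col-0 libraries at the median member length.

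AT5G39580 (chromosome 5, 15847065 to 15849141), noted for defence against fungi, was at 26.7, 28.3 and 27.5 RPKM in Col-0, against 58.0, 88.9 and 83.2 in the RNAi line. The increase was 2.79-fold without overlap (log2 fold change 1.42, SE 0.15, limma adjusted p = 0.000797). RefSeq notes 3 members for defence against fungi, AT5G39580, AT2G37130 and PRX71, and each was called higher, beside 25.2% of all genes tested. This grouping was made after the values were seen, and the call of PRX71 did not hold without any single library other than RNAi replicate 1.

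AT4G33420 and AT2G22420 were higher by like amounts in all 3 RNAi libraries. AT4G33420, noted in a wide range of organs, was at 16.1, 18.7 and 17.3 RPKM in Col-0, against 32.1, 33.6 and 34.7 in the RNAi line (log2 fold change 0.91, SE 0.07, limma adjusted p = 0.000274). AT2G22420 was at 6.47, 6.70 and 6.59 RPKM in Col-0, against 11.3, 13.0 and 11.6 in the RNAi line (log2 fold change 0.77, SE 0.06, limma adjusted p = 0.000337). In both genes the groups were several times farther apart than their libraries. AT2G18980 rose 1.78-fold, AT4G36430, noted in the cell wall and for the response to other organisms, 1.70-fold, and AT5G19890 1.70-fold. AT4G11290 and AT3G21770, with log2 fold changes of 0.43 and 0.28, rose least among the called members with a mean above 40 RPKM in both groups, and the call of AT3G21770 was lost without Col-0 replicate 1 or 3 or RNAi replicate 2 (adjusted p between 0.0788 and 0.0992). AT2G18150, noted in the cell wall and for the response to nematodes, rose from 3.53 ± 0.41 to 5.56 ± 1.51 RPKM, a call lost without Col-0 replicate 1, 2 or 3 (adjusted p between 0.0592 and 0.115).

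PRX72 (AT5G66390), known for a part in lignification, was at 66.0, 81.1 and 74.9 RPKM in Col-0, against 73.2, 59.0 and 57.6 in the RNAi line, with overlap (log2 fold change -0.23, limma adjusted p = 0.143). Without RNAi replicate 1 its log2 fold change was -0.33 and it passed (adjusted p = 0.0182). PER4 (AT1G14540) did not pass, at 6.26 ± 1.43 against 5.09 ± 0.84 RPKM.

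The decreases next in size were in members whose RefSeq notes name root or hypocotyl, as the notes of most members with a named organ do. Of the 61 members, 12 are noted in root and hypocotyl only and 12 in these beside other organs. The notes of 26 give only a number of plant structures, among them RCI3, PRXR1 and AT1G71695, which were also lower, and those of 7 give none. AT2G35380 (chromosome 2, 14892495 to 14893993), noted in hypocotyl and root, was at 31.6, 34.1 and 34.8 RPKM in Col-0, against 14.2, 8.93 and 12.3 in the RNAi line, 2.83-fold lower (log2 fold change -1.45, SE 0.15, limma adjusted p = 0.0007). AT2G39040, noted in the root, was at 5.48, 6.52 and 4.59 RPKM in Col-0, against 1.39, 1.85 and 2.50 in the RNAi line (log2 fold change -1.17, SE 0.17, limma adjusted p = 0.00185). Groups of neither gene overlapped. AT3G01190 was at 83.3, 108 and 99.3 RPKM in Col-0, against 64.7, 42.1 and 45.1 in the RNAi line (log2 fold change -0.94, limma adjusted p = 0.00507).

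AT1G68850, noted in hypocotyl and root, fell from 12.7 ± 0.25 to 6.37 ± 1.86 RPKM (log2 fold change -0.92, limma adjusted p = 0.00495). AT5G14130, noted in embryo, hypocotyl, fruit and root, fell from 7.37 ± 0.21 to 3.36 ± 0.55 RPKM (log2 fold change -0.95, limma adjusted p = 0.00071). AT1G71695, noted in the cell wall, vacuole and membrane, fell from 74.8 ± 1.61 to 50.3 ± 4.85 RPKM (limma adjusted p = 0.00148). These 3 decreases were without overlap. AT2G34060 and AT5G06730 were 1.65-fold and 1.71-fold lower, and AT5G15180 and AT5G40150 were 1.34-fold and 1.31-fold lower. The call of AT5G06730, at 2.38 ± 0.33 against 1.39 ± 0.43 RPKM, was lost without Col-0 replicate 1 or 3 or RNAi replicate 2 (adjusted p between 0.0756 and 0.0852).

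Members were also grouped by the organs RefSeq notes, after the values were seen. Of all genes tested, 25.2% were higher and 27.5% lower, which is the background for these counts. The notes of 26 members give only a number of plant structures and those of 7 give none, so these 33 members entered neither group of organs. Of 12 members noted in root and hypocotyl only, 10 were tested, 2 were higher and 5 lower (median log2 fold change -0.28). Of 12 with root or hypocotyl named beside other organs, all tested, 2 were higher and 5 lower (median -0.23). Of 14 members noted in the cell wall or apoplast, 12 were tested, 6 were higher and 1 was lower (median 0.20). Of 4 noted for salt stress, AT4G37530 was higher, RCI3 and AT2G38390 were lower and AT2G38380 did not pass. Beside these, 4 of 8 endodermis markers were lower and 2 higher in the same fit, with summed levels of 232 to 276 RPKM in Col-0 and 191 to 196 in the RNAi line. Of 6 xylem and secondary wall markers tested of 7, 4 were lower and 0 higher (0 higher also at an unadjusted p under 0.05), with sums of 31.6 to 33.1 and 20.3 to 23.6 RPKM. The part of these cell types in the members' decreases was not tested.

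AT1G30870, AT4G26010 and AT3G49960 were high in RNAi replicates 1 and 2 and below the Col-0 mean in replicate 3, as was the summed level of the root hair markers. AT1G30870, noted in the root, was at 23.4, 26.8 and 24.3 RPKM in Col-0, against 61.3, 53.8 and 21.5 in the RNAi line, so RNAi replicates 1 and 2 were high and replicate 3 was below Col-0. AT4G26010, noted in the root, was at 27.0, 32.0 and 32.4 RPKM in Col-0, against 49.2, 50.5 and 25.7 in the RNAi line. AT3G49960 was at 14.9, 18.0 and 16.3 RPKM in Col-0, against 25.3, 30.9 and 11.8 in the RNAi line. None of the 3 passed the test over all libraries (limma adjusted p = 0.14, 0.241 and 0.398).

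Without RNAi replicate 3, all 3 passed, with log2 fold changes of 1.18 for AT1G30870, 0.70 for AT4G26010 and 0.74 for AT3G49960 (limma adjusted p = 0.000122, 0.000919 and 0.00164). The 8 root hair markers summed to 87.7, 104 and 91.5 RPKM in Col-0 and to 175, 173 and 85.9 in the RNAi line. Among the single markers, RSL4 and PRP1 were above the Col-0 mean in RNAi replicate 3 as well, at 1.45 and 1.15 of it, and the other 6 were below it. Of these markers, 1 (RSL4, a regulator of root hair growth) was higher and 0 were lower in limma. At an unadjusted p under 0.05, 2 were higher and 0 lower, and with no filter on low values 0 were higher and 0 lower. AT1G34510 and AT5G17820 were also least raised in replicate 3. This was not particular to them. AT2G37130, AT2G18980, AT1G49570, PRX52, AT4G37530 and AT3G21770 had their lowest RNAi value in replicate 3 as well, and the other members called higher had it in another replicate. Over all genes tested, replicate 3 was also the RNAi library closest to the wild type. AT1G34510, noted in the root, was at 6.85, 8.02 and 6.63 RPKM in Col-0, against 14.1, 17.8 and 8.87 in the RNAi line (log2 fold change 0.79, limma adjusted p = 0.0245). AT5G17820 was at 90.1, 104 and 96.6 RPKM in Col-0, against 172, 147 and 107 in the RNAi line (log2 fold change 0.52, limma adjusted p = 0.0375). Both kept their direction but missed the threshold when single libraries were left out, AT1G34510 without Col-0 replicate 1, 2 or 3 or RNAi replicate 2, and AT5G17820 without any single library other than RNAi replicate 3. The part of root hair number in these values was not tested.

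**Figure D3:**
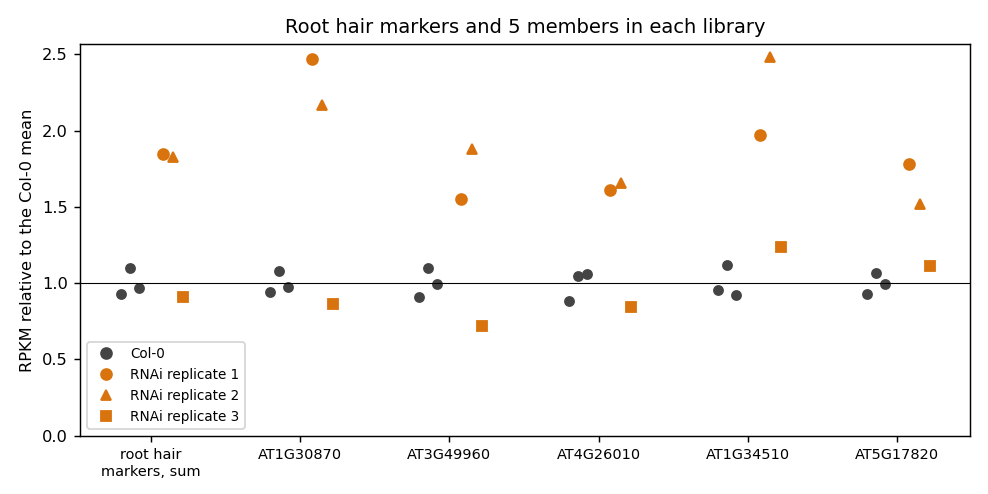
RPKM of each library divided by the Col-0 mean, for the sum of 8 root hair markers and for 5 members. RNAi replicates 1 and 2 lie at 1.52 to 2.48 in all 6 columns, while replicate 3 lies between 0.717 and 1.24. Some other members called higher, not drawn, were also least raised in replicate 3.

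Several members stayed within the spread of the libraries. AT3G28200, noted in the cell wall, was at 40.5, 36.3 and 37.7 RPKM in Col-0, against 39.6, 39.7 and 36.7 in the RNAi line, and the 95% interval of its log2 fold change was -0.13 to 0.16. AT1G44970 was at 12.1, 14.03 and 13.6 RPKM in Col-0, against 12.2, 13.5 and 13.7 in the RNAi line, with an interval of -0.18 to 0.17. These intervals leave room for small changes only. AT5G51890, AT5G58390 and AT5G47000 were at means of 1.67 to 3.91 RPKM in both groups, with log2 fold changes between -0.11 and 0.16 and wide intervals. Without RNAi replicate 3, AT5G58390 passed as lower (log2 fold change -0.33, limma adjusted p = 0.0241).

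The 11 members outside the filter were near or below 1 RPKM in every library, with a highest single value of 1.39. That value was of AT3G03670 in RNAi replicate 3, against 0.02 and 0.24 in the other RNAi libraries. The highest mean outside the filter was 0.91 RPKM (AT1G14550) and the lowest inside it 1.02 (AT2G43480). PER36 (AT3G50990), known for the release of seed coat mucilage, was at 0.00 to 0.01 RPKM in Col-0 and 0.02 to 0.04 in the RNAi line, below the floor of 3 reads in every library at the median member length. AT5G58400 was listed at 0.00, 0.07 and 0.00 RPKM in Col-0, against 0.55, 0.35 and 0.09 in the RNAi line. AT5G19880 was at 0.07 to 0.22 and 0.33 to 0.45 RPKM.

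Short motifs were searched on both strands in the 250 bases before the start of each gene, with motifs chosen after the values were seen. The W-box core TTGAC was in 6 of the 17 windows of members called higher and 7 of the 14 of those called lower, beside 44.9% of 27443 windows of all protein-coding genes. The G-box CACGTG was in 0 of either group and in 3 of all 61, beside 6.49% of all windows. The AC element ACCTACC, known from promoters of lignin genes, was in 0 of the 61, beside 1.16%. A missing match says only that these letters are not in the window.

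Genes that act with the peroxidases were read from lists of known pathway members in the same fit. Monolignols, the substrates of lignin polymerisation, are made by enzymes of which 18 were tested, with 4 higher and 4 lower (median log2 fold change -0.02), beside 25.2% higher and 27.5% lower of all genes tested, a background that also applies to the lists that follow. PAL3, a phenylalanine ammonia-lyase, rose from 1.48 ± 0.24 to 4.54 ± 0.83 RPKM, and C4H, the next enzyme, from 128 ± 4.18 to 172 ± 10.4. PAL4 fell from 15.4 ± 0.63 to 7.86 ± 0.74 RPKM and 4CL3 from 3.10 ± 0.33 to 1.63 ± 0.62, a call lost without Col-0 replicate 2 or RNAi replicate 2 (adjusted p = 0.0579 and 0.0561). The share that passed in either direction was not above that of all genes.

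Laccases are copper oxidases that polymerise lignin beside peroxidases. Of 12 tested of 17, 5 were lower and 1 was higher (median -0.28). LAC5 fell from 5.57 ± 0.38 to 2.30 ± 0.75 RPKM and LAC7 from 60.7 ± 3.01 to 32.2 ± 8.17, while LAC8 rose from 16.1 ± 0.71 to 21.5 ± 4.11. The call of LAC8 held only without RNAi replicate 3 among the fits that left out 1 library, with adjusted p between 0.0753 and 0.13 in the others. Of the respiratory burst oxidases, which supply superoxide to the apoplast, 8 of 10 were tested, 3 were lower and 0 higher in limma, with 4 lower and 1 higher at an unadjusted p under 0.05. The oxidase gene AT4G25090 fell from 8.58 ± 0.54 to 5.46 ± 0.50 RPKM and RBOHB from 10.2 ± 1.19 to 6.61 ± 0.65. With no filter on low values, 2 were lower.

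Of the ascorbate peroxidases and catalases, which remove hydrogen peroxide inside the cell, 9 of 11 were tested, 4 were lower and 1 was higher. CAT3 was at 529, 477 and 513 RPKM in Col-0, against 1228, 1289.8 and 1229.8 in the RNAi line (log2 fold change 1.302, limma adjusted p = 0.000201). TL29, a peroxidase-like protein of the thylakoid lumen, fell from 223 ± 7.59 to 82.8 ± 21.3 RPKM and TAPX, the thylakoid ascorbate peroxidase, from 56.7 ± 2.97 to 25.2 ± 7.35. The list's sum was 1504 to 1601 RPKM in Col-0 and 2080 to 2189 in the RNAi line, raised by CAT3 against the other called genes. Of 7 regulators of peroxidase or lignin genes, 3 were tested, 2 were lower and 0 higher (2 and 0 at an unadjusted p under 0.05, and 0 and 0 with no filter). UPB1, a transcription factor known to repress root peroxidase genes, fell from 5.98 ± 0.85 to 3.84 ± 0.94 RPKM. Its call was lost without Col-0 replicate 1 or 2 or RNAi replicate 2 and under the rescaling to equal totals (adjusted p between 0.0514 and 0.0932).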

How the data were processed

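RNA of whole seedlings was sequenced as poly(A) RNA in strand-marked paired-end libraries, 3 of Col-0 and 3 of the RNAi line, per the labels' protocols. The submitters' processing notes name Trimmomatic 0.39, Bowtie2 2.2.6 and the build TAIR10. The counting tool, the gene set, the use of strand and the scaling between libraries are not stated there or in the labels. The authors deposited 1 table of RPKM values to 2 decimals for all 6 libraries, with 38199 lines, of which 5 carried no gene and were left out. Per the file headers it also holds a weighted multiple-mapping ratio, a fraction taken to be that part of the reads of a gene which map to several places. Depth was estimated from the steps between low RPKM values of genes up to 0.25 kb, where 54.5% to 64.6% of low values lay on a step, against 6.95% to 9.79% by chance. Floors cover counting error only. RPKM is not a count, so no count test was run.

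The moderated test of limma 3.58.1 (R 4.3.3) was applied to log2(RPKM + 1), with a variance prior that followed the mean. It ran on 19458 genes whose mean over the 6 libraries was 1 RPKM or more. A gene was called when its p, adjusted by Benjamini-Hochberg over all genes tested, was under 0.05. Fold changes on this scale understate changes of low genes, and ratios in the text are between mean RPKM values. The same step was run on simulated data in which few genes changed, all upward, with no difference in scaling between groups. The real data differ in each of these points, so that run checks the code and not the calls given here. Errors are SDs over n = 3. Ratios and sums were compared with exact permutation tests. Alternatives were other pseudocounts, other filters, quantile normalization, rescaling to equal totals of RPKM times length, each library left out, a replicate block and removal of members with a multiple-mapping ratio over 0.1.

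Coordinates, notes, coding sequences and the 250 bases before each start were taken from RefSeq's TAIR10.1, in which all 61 members were found by identifier. Named by rule are the 12 members with the largest called rise and the 12 with the largest called fall, each without overlap and at 1 RPKM or more in the higher group. The rule adds the 8 most abundant, those of a role list, the 2 highest uncalled per genotype and up to 2 called genes per direction in each companion list. Other members named were chosen after their values were seen. The members and lists were chosen with earlier results of these data known. Another gene with the same description is not reported here. Sequence comparisons used Biopython 1.88.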

Additional observations from a re-analysis of the deposited data

How the results depend on the processing

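The count of members called higher was 17 with pseudocounts of 0.1 and 5 RPKM, 13 of 61 with no filter on low values, 15 of 38 with a mean of at least 5 RPKM, 18 with quantile normalization and 19 with rescaling to equal totals. With no filter, AT1G34510, AT2G18150, AT3G21770, AT4G08780, AT5G06730, AT5G17820 and PRX71 lost their call and AT4G33870 gained one. The count called lower was 14, 14, 12, 10, 14 and 13 under the same settings. Leaving out 1 library gave 12 to 19 higher and 13 to 16 lower, and leaving out the 2 members with reads shared between copies gave 17 and 14. The share of all genes called moved as well, from 25.2% higher and 27.5% lower to 12.7% and 12.9% with no filter, 26.8% and 29.0% with a mean of at least 5 RPKM, 18.1% to 28.4% and 20.4% to 31.2% with 1 library left out, and 22.0% and 24.5% with the replicate block. None of these counts differed from 17 or 14 by more than 1.5 times. Same-numbered libraries of the groups did not deviate together (correlations of -0.064, 0.093 and 0.02 over 19458 genes). These values gave no sign that the numbers pair the samples, but 3 libraries a group cannot establish that they do not. With the replicate number as a block, 15 members were higher and 14 lower, and the block lost AT2G18150, AT3G21770 and AT5G17820 and gained Prx37 (adjusted p = 0.0499).

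Among all tested members and the companion genes named by rule, changes of direction were seen in 7 members, none of which passed where its direction changed. AT1G05240 was at 0.013 with rescaling and between -0.41 and 0.037 when 1 library was left out, above 0 without Col-0 replicate 2 or RNAi replicate 3. PRX2 (AT1G05250) was at 0.041 with rescaling and between -0.29 and 0.082 with 1 library left out, above 0 without RNAi replicate 3. AT1G44970 was at 0.15 with rescaling and between -0.066 and 0.041 with 1 library left out, above 0 without Col-0 replicate 2 or 3 or RNAi replicate 1. AT5G64100 was between -0.034 and 0.10 with 1 library left out, below 0 without Col-0 replicate 1 or RNAi replicate 1 or 2. AT3G28200 was between -0.016 and 0.061 with 1 library left out, below 0 without Col-0 replicate 2 (-0.016) or RNAi replicate 2 (-0.00087). AT5G47000 was between -0.11 and 0.23 with 1 library left out, below 0 without RNAi replicate 1. AT5G58390 was at 0.013 with rescaling and between -0.33 and 0.060 with 1 library left out, above 0 without RNAi replicate 1. The cause was not tested.

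With 3 libraries a group, ratios and sums could not reach an exact p under 0.1. The scaling between libraries is not stated, and rescaling moved the median of all genes by over 0.1 log2 units, so a log2 fold change of that size depends on it. Members under 1 RPKM rest on few reads.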

Other observations

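Some peroxidase genes of the deposited table fall outside the rule, either because the words of their description differ or, as for AT4G16270 and AT2G41480, because the same words begin with a small letter. They were picked out after the values were seen. PRXCB (AT3G49120), a cell wall peroxidase known for the oxidative burst in defence, was at 193, 206 and 222 RPKM in Col-0, against 565, 389 and 295 in the RNAi line (log2 fold change 0.96, limma adjusted p = 0.0119). All RNAi libraries were above Col-0, replicate 3 the least. Its near relative PRXCA (AT3G49110) was at 10.46, 8.90 and 10.8 RPKM in Col-0, against 7.29, 6.96 and 9.91 in the RNAi line, with overlap (log2 fold change -0.30, limma adjusted p = 0.104). AT4G16270 was at 6.54, 8.05 and 8.30 RPKM in Col-0, against 2.39, 2.90 and 2.77 in the RNAi line (log2 fold change -1.22, limma adjusted p = 0.000358), and AT2G41480 fell from 4.57 ± 0.54 to 2.22 ± 0.52. PA2 (AT5G06720) rose from 0.62 ± 0.09 to 1.39 ± 0.15 RPKM. AT4G30170, at 298 ± 28.9 against 350.5 ± 36.2 RPKM, did not pass (limma adjusted p = 0.118).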
